A study of Mus musculus with 2 samples.

Results

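Genes of cholesterol and bile acid metabolism were examined for GATA4 occupancy in adult mouse liver. The 39 genes were listed by role, from bile acid synthesis to cholesterol synthesis. A gene was called occupied when the midpoint of a GATA4 occupied site (OS) lay in its body or within 10 kb of it. Of the 39 genes, 38 could be placed among the protein-coding genes of GENCODE M1, and the remaining 22342 protein-coding genes served as the background. Hmgcs1 was not analysed here. The 38 placed genes held 14 of the 4409 OS of the series.

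GATA4 was immunoprecipitated with the C-20 antibody from fixed chromatin of whole liver of C57BL/6 x Sv129 mice labelled as 2 to 3 months old, and the recovered DNA was sequenced (ChIP-seq). The study's methods give a slightly higher age range. Liver DNA of the same strain and age that had not been immunoprecipitated was the input control. The study pooled 2 mice in each of 2 biological replicates, and the processed lists combine the replicates, so that the data are 1 ChIP sample against 1 input and a peak has no replicate error. Peaks had been called with SPP and with MACS2 (4811 and 5867 peaks), and the peaks found by both are the common OS. The lists hold no read counts, so the depth behind each OS is unknown, and no RNA level, so neither the expression of the genes nor the cell types of the liver could be checked. Whole liver contains endothelial and other cells besides hepatocytes, and the lists do not say in which cells an OS was bound.

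The liver both makes cholesterol, from acetyl-CoA by way of mevalonate and squalene, and removes it. Removal proceeds by conversion to bile acids, by secretion of free sterol into bile and by loading onto lipoproteins, while surplus sterol is stored as esters. Sterol in the membrane of the endoplasmic reticulum holds back SREBP transcription factors through the Scap and Insig proteins and so turns down synthesis. GATA4 is a zinc finger transcription factor that binds WGATAR, where W is A or T and R is A or G.

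At least 1 common OS was assigned to 12 of the 38 genes (31.6%, Wilson 95% interval 19.1 to 47.5, which covers counting error only). Among the other protein-coding genes, 13.6% had one. The occupied genes were Cyp7a1, Cyp7b1, Abcg5, Abcg8, Abca1, Scarb1, Soat1, Soat2, Insig1, Scap, Mylip and Dhcr7. Abcg5 and Abcg8 shared their only OS, so that 11 genes are counted if such a pair is counted once. Abca1, Scarb1 and Soat2 each held 2 OS (7.89% of the 38 genes, against a background of 3.00%). No set test was made, because the genes were chosen with results of these data known.

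Peaks of the whole SPP list were near 14 genes (36.8%, background 14.5%), and those of the whole MACS2 list also near 14 (36.8%, background 17.3%). Both counts include the 12 genes with a common OS. In all, 16 genes had a peak in some list, 12 had one in all 3 lists, and 22 had none. The common OS are the peaks found by both callers, so those 12 largely follow from the definition of the lists. No background share was taken for these counts. Gene length bears on such counts, since a longer gene offers more sequence to an OS. The 38 genes were longer than the rest, with a median of 23.8 kb against 15.4 kb. Within length classes, an OS was found at 1 of 7 genes under 10 kb (14.3%, others 7.34%), at 6 of 18 genes of 10 to 30 kb (33.3%, others 12.9%), at 3 of 10 genes of 30 to 100 kb (30.0%, others 18.9%) and at 2 of 3 longer genes (66.7%, others 27.9%). The density was 7.14 OS per Mb for these genes and 2.80 for the others. Each gene's window was counted separately, so the OS shared by Abcg5 and Abcg8 counted for both genes.

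The plot of distances by role shows where the occupied genes fell. Both genes of cholesterol esterification held an OS, as did 3 of 5 genes of sterol sensing. Bile acid synthesis, biliary transport and cholesterol efflux or uptake each had 2 of 6 genes with an OS (33.3%). The 2 genes of biliary transport, Abcg5 and Abcg8, were counted through 1 shared OS. Of the 11 placed enzymes of cholesterol synthesis on the list, 1, Dhcr7, had an OS within 10 kb (9.09%, beside the 13.6% of the background), and neither gene of bile acid conjugation had a common OS. These groups are small and the differences between them were not tested.

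**Figure D1:**
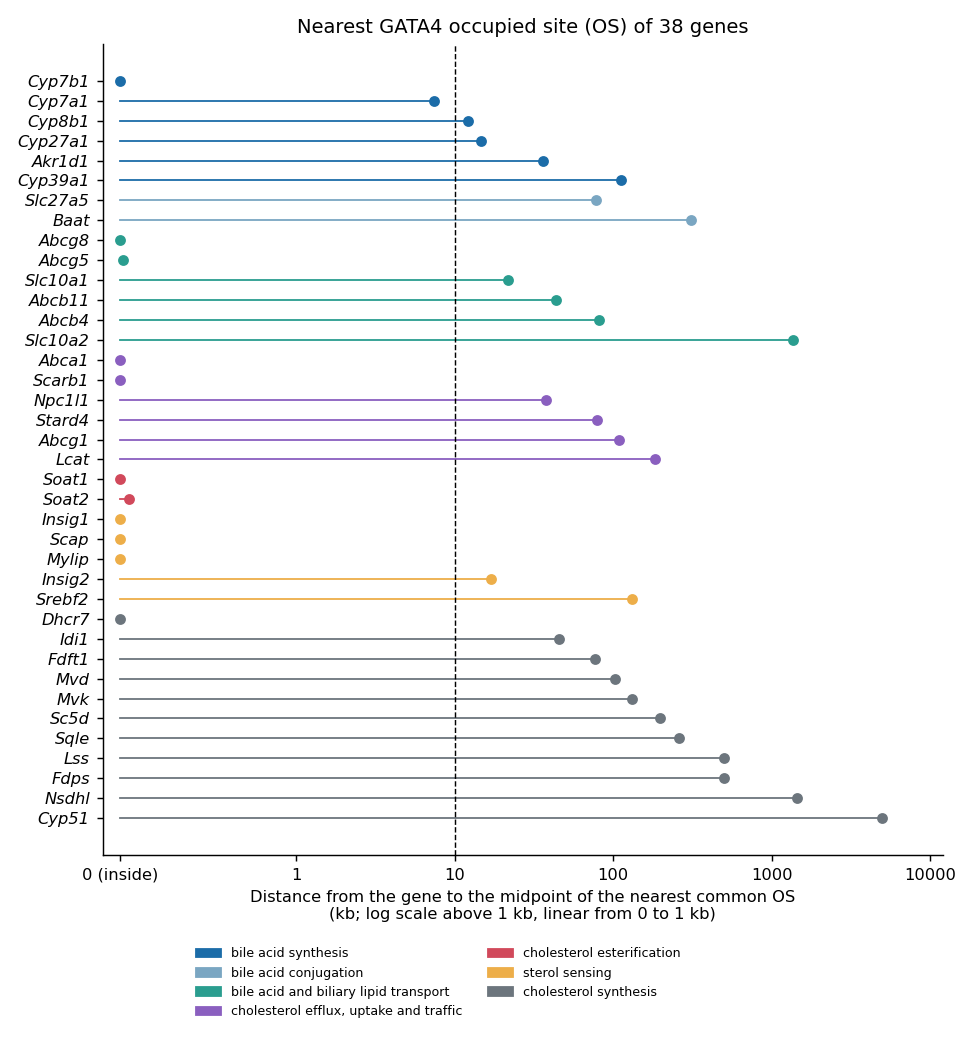
Distance in kb from each of the 38 genes to the midpoint of its nearest common OS, with 0 for an OS inside the gene; the axis is linear up to 1 kb and logarithmic beyond, colours give the role, and the dashed line is 10 kb. The 12 occupied genes lie left of the line, 8 genes lie between 10 and 50 kb, and cholesterol synthesis enzymes other than Dhcr7 lie at 45.5 kb or farther.

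The OS with the lowest number of the list lay between Abcg5 and Abcg8, whose proteins form the heterodimer that pumps sterols into bile. The genes diverge from a short shared promoter, and the OS, chr17:85082226-85082510 (285 bp, mm9), covered all of it. It was number 87 of 4409 in the common list and number 137 of 5867 in the MACS2 list. Its midpoint was 17 bp upstream of the Abcg5 transcription start site (TSS) and 93 bp upstream of the nearest Abcg8 TSS, although the longest annotated Abcg8 transcript starts within Abcg5 and puts the OS in its intron 1. The 109 bases between both start sites are shown on the plus strand, with the WGATAR matches in capitals.
Abcg5/Abcg8, chr17:85082352-85082460: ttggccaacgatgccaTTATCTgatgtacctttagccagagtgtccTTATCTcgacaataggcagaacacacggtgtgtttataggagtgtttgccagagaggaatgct
Both matches, printed as TTATCT, read AGATAA on the minus strand and start 30 bp apart. A further AGATAA of this OS, on the plus strand at 85082334 to 85082339, lies just inside the Abcg5 transcript. An OS at a promoter shared by 2 genes cannot be assigned to either gene by position.

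The other 4 placed transporters of bile acids and biliary lipids had no peak within 10 kb in any list. Of these, Slc10a1, which takes up bile salts from the blood, had its nearest common OS 21.6 kb away, and Abcb11, the canalicular bile salt export pump, had it 43.6 kb away. For Abcb4, which delivers phosphatidylcholine to bile, the distance was 81.8 kb. Slc10a2, the bile acid transporter of the ileum, was 1370 kb from the nearest OS.

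Soat2, which encodes the sterol O-acyltransferase of hepatocytes and enterocytes, had 2 common OS at its promoter on chromosome 15. The distal one, chr15:101980078-101980302, was number 118 in the common list and number 208 in the MACS2 list, with its midpoint 767 bp upstream of the TSS. The proximal one, chr15:101980854-101980963, had its midpoint 49 bp upstream of the TSS and was number 2267 in the common and 2170 in the MACS2 list. SPP and MACS2 each separated them into 2 peaks. Igfbp6 also lay within 10 kb of both, but the Soat2 TSS was the nearest. The distal OS is shown whole and the proximal OS up to the TSS, on the plus strand of mm9.
Soat2 distal, chr15:101980078-101980302: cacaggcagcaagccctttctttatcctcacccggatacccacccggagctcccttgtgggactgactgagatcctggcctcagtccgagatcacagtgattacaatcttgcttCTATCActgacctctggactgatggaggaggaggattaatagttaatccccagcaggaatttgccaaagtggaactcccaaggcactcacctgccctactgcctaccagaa
Soat2 proximal, chr15:101980854-101980956: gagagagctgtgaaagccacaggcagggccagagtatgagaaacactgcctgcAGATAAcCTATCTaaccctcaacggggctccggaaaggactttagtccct
The distal OS, early in both lists, held a single TGATAG on the minus strand, 4.5 bp from its midpoint. The proximal OS held an AGATAA on the plus strand and an AGATAG on the minus strand whose starts were 7 bp apart. Matches on opposite strands that start within 10 bp of each other occurred in 1.91% of the other common OS, and in 1 of the 14 OS described here.

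Soat1, the acyltransferase found in most tissues, had 1 common OS in its intron 2, at chr1:158388988-158389067, 15.4 kb downstream of the TSS. It was the narrowest of the 14 OS (80 bp) and had the highest number, 3912, in the common list. In the MACS2 list it was number 3993. Soat1 was thus occupied within the gene by an OS late in the list, and Soat2 at its promoter, with the distal OS early in the list.

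**Figure D2:**
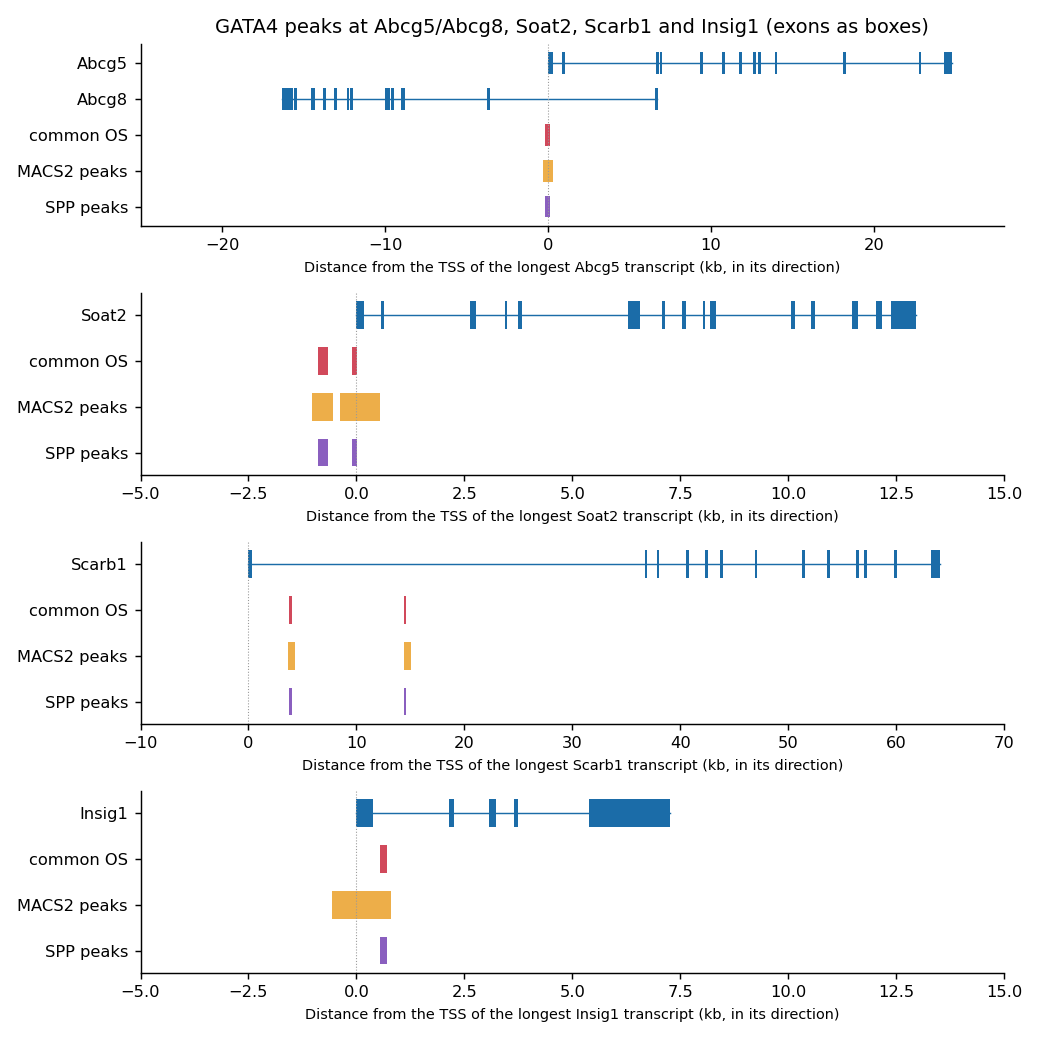
Exons (blue boxes), common OS, MACS2 peaks and SPP peaks at Abcg5 with Abcg8, at Soat2, at Scarb1 and at Insig1, drawn to scale against the distance in kb from the TSS of the longest transcript of the anchoring gene, in its direction; the narrowest marks are widened so as to be visible. The OS of Abcg5 and Abcg8 covers the start site. Both Soat2 OS have their midpoints within 1 kb upstream of the Soat2 start site, and the proximal one reaches 6 bp past it. The Scarb1 OS lie in intron 1.

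Scarb1, the receptor that takes up cholesterol ester from high density lipoprotein, had 2 common OS in its intron 1. The first, chr5:125806844-125807054, was number 815 in the common list and 680 in the MACS2 list. It lay 14.5 kb downstream of the TSS of the longest transcript, but 312 bp upstream of the start of another annotated transcript. The second, chr5:125817458-125817640 (common number 1057, MACS2 number 901), lay 3.92 kb downstream of the same TSS. The OS at the inner start site is shown because it lies within 1 kb of an annotated TSS. Whether transcription starts there in liver was not examined.
Scarb1, chr5:125806844-125807054: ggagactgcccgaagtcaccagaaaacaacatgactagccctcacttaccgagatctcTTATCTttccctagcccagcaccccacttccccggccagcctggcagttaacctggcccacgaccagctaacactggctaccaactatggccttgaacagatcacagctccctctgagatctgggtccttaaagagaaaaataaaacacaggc
In each Scarb1 OS, the only match was an AGATAA on the minus strand, 44.5 bp to the left of the midpoint.

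Abca1, which exports cholesterol to apolipoprotein A-I, also had 2 common OS. One lay in its intron 3 at chr4:53144015-53144153 (common number 1923, MACS2 number 2318), 28.7 kb from the TSS. The other, chr4:53036487-53036649 (common number 1279, MACS2 number 979), lay downstream of the gene, and its nearest TSS was that of Nipsnap3b, 2720 bp away. This was the only OS of the 14 whose nearest TSS belonged to a gene outside the list. The remaining genes of efflux, uptake and traffic had no common OS within 10 kb. The nearest OS was 37.6 kb away for Npc1l1, a sterol importer, 79.2 kb for Stard4, a sterol carrier, 109 kb for Abcg1, an exporter to high density lipoprotein, and 185 kb for Lcat, the plasma enzyme that esterifies cholesterol. Lcat had a MACS2 peak, number 2933, centred 118 bp upstream of its TSS, in a region with 4 genes within 10 kb.

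Among the genes of sterol sensing, Insig1 encodes a protein of the endoplasmic reticulum that retains Scap when sterol is plentiful. Its OS, chr5:28398487-28398650, lay in intron 1, 616 bp downstream of the TSS, with common number 1837 and MACS2 number 1724. The MACS2 peak was far wider, at 1355 bp, and spanned the TSS.
Insig1, chr5:28398487-28398650: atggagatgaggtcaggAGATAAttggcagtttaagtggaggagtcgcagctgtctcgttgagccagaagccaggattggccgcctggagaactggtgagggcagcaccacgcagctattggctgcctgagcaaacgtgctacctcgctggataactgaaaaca
The single AGATAA lay near the left edge, 61.5 bp from the midpoint of the SPP-derived interval. In the letters just before it stands aggtca, the core element bound by many nuclear receptors.

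Scap, the escort protein of SREBP, had an OS in intron 3, chr9:110269361-110269557, with common number 649 and MACS2 number 788. It was 33.6 kb from the TSS of the longest transcript and 5.34 kb from that of the nearest one, and 5830462I19Rik also lay within 10 kb. Mylip, a ubiquitin ligase that directs lipoprotein receptors to breakdown, had an OS in intron 5, chr13:45502188-45502387 (common number 1201, MACS2 number 952). A further Mylip peak 7.31 kb upstream was called by MACS2 only (number 3958) and held 5 WGATAR matches. Insig2 and Srebf2, which encodes the SREBP most concerned with cholesterol synthesis, had no peak within 10 kb in any list. Their nearest common OS were 17.0 and 131 kb away.

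Cyp7a1 and Cyp7b1 were occupied at a distance from the promoter. Cyp7a1, the rate-limiting enzyme of the classical pathway, had its OS at chr4:6185250-6185394, 7.44 kb past the end of the gene and 17.5 kb from the TSS. No other protein-coding gene lay within 10 kb of it. Cyp7b1, the oxysterol hydroxylase of the alternative pathway, had an OS in intron 1 at chr3:18109650-18109969, 33.5 kb from the TSS. These OS stood apart from the other 12 in their numbers, as the plot of list numbers shows. The Cyp7a1 OS was number 1391 in the common list (31.5% down the list) but 4520 in the MACS2 list (77.0%), and the Cyp7b1 OS was number 2225 (50.5%) and 5016 (85.5%). Cyp7a1 also had the lowest GC content of the 14 OS, 37.9%. The first 300 bases of the Cyp7b1 OS are shown, since it shared with Abcg5 and Abcg8 the most matches of any of the 14 OS, 3.
Cyp7b1, chr3:18109650-18109949: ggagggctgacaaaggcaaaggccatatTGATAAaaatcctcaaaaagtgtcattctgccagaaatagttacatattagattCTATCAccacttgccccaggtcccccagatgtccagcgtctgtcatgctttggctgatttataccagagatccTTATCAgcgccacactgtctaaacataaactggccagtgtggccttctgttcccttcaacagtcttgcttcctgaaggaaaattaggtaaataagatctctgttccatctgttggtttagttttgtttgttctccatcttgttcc
None of these 3 was AGATAA: they read TGATAA on the plus strand, then TGATAG and TGATAA on the minus strand, with starts 54 and 73 bp apart.

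**Figure D3:**
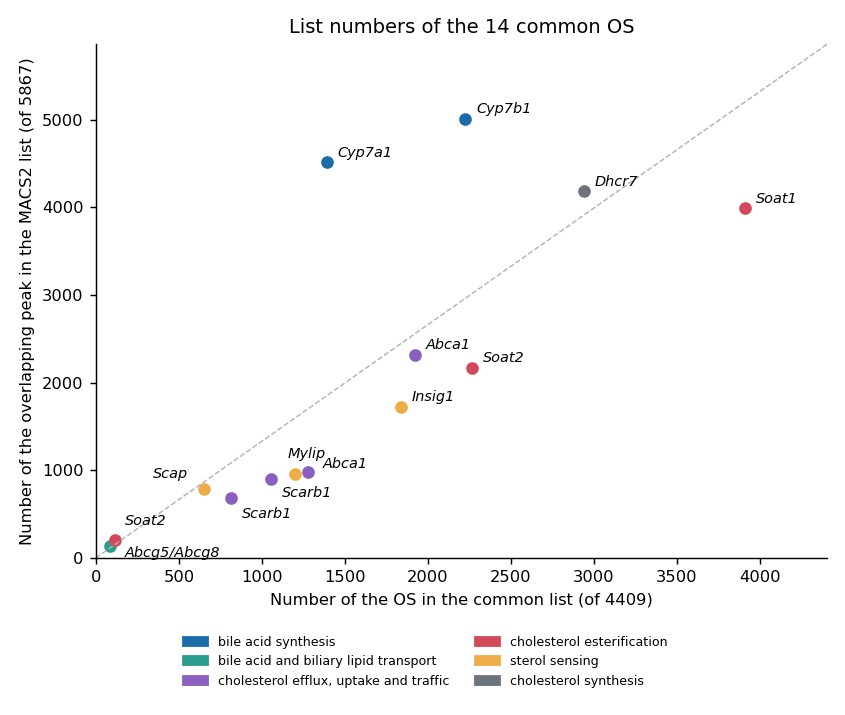
Number of each of the 14 common OS in the common list (horizontal axis) against the number of the overlapping peak in the MACS2 list (vertical axis), with the role as colour; the dashed line marks equal relative positions. Abcg5/Abcg8 and the distal Soat2 OS are near the origin, and the OS of Cyp7a1 and Cyp7b1 lie far above the line.

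The remaining enzymes of bile acid synthesis had no common OS within 10 kb. Cyp8b1, the hydroxylase required for cholic acid, and Cyp27a1, which opens the alternative pathway, had their nearest OS 12.1 and 14.6 kb away. Each of these OS was closer to a TSS of another gene. For Akr1d1, a sterol reductase, the nearest common OS was 35.9 kb away, and an intronic MACS2 peak (number 5292) had no SPP counterpart. Cyp39a1, an oxysterol hydroxylase, had an SPP peak in intron 1 (number 3279) that was absent from the MACS2 list. Baat, which joins bile acids to taurine or glycine, likewise had an SPP peak only (number 4017 of 4811). It was centred 21 bp upstream of the Baat TSS and held 2 WGATAR matches. Slc27a5, which activates bile acids for conjugation, was 77.9 kb from the nearest OS.

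Dhcr7, which reduces 7-dehydrocholesterol to cholesterol, was the only enzyme of cholesterol synthesis among the 38 genes with a common OS within 10 kb. Its OS, chr7:151019475-151019794, lay in intron 2, 10.6 kb from the TSS of the longest transcript and 3.47 kb from that of the nearest one. It was number 2942 in the common list and 4183 in the MACS2 list. For the other enzymes, the distance to the nearest common OS was 131 kb for Mvk and 103 kb for Mvd of the mevalonate steps, 45.5 kb for Idi1, 502 kb for Fdps and 77.2 kb for Fdft1 of the isoprenoid and squalene steps, and 260 kb for Sqle and 499 kb for Lss, which turn squalene into the first sterol. Of the later enzymes, Sc5d was 198 kb, Nsdhl 1430 kb and Cyp51 4940 kb away. The median over the 11 enzymes was 198 kb, beside 158 kb for protein-coding genes outside the list. Across all 38 genes the median distance from the gene to the nearest common OS was 44.6 kb, and 18 genes (47.4%) were over 50 kb away, against 72.3% of the other genes.

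The score of every deposited peak was 1000, so the number of an OS in its list is the only order that the files carry, and the files do not state what it follows. The 14 OS had a median number of 1335 in the common list, against 2208 for the other 4395 common OS. They ran from 87 to 3912, and 10 of the 14 stood before the midpoint of the list. In the MACS2 list the median number was 1351.5, against 2197 for the peaks at the other common OS. Width did not separate them, with a median of 190 bp in both sets. Median GC content was 51.7% (37.9 to 54.3) and 49.4% in the other OS.

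By position, many of the 14 OS were close to genes. Within 1 kb of a TSS lay 5 of the 14, namely the OS of Abcg5 and Abcg8, both of Soat2, the inner one of Scarb1 and that of Insig1, against 16.5% of the other common OS. The median distance to the nearest TSS of any protein-coding gene was 3150 bp, against 14588 bp. The assignment rule itself favours OS near genes, so this difference is a description and not a result about the genes. For 13 of the 14 OS the nearest TSS belonged to a gene of the list, and 10 lay within the body of one. The same rule favours both counts, and no share of the other common OS was taken beside them.

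WGATAR was matched exactly on both strands, and each of the 14 OS held at least 1 match (Wilson 95% interval 78.5 to 100%). The share was 82.8% in the other common OS. In windows of the same width 5 kb to the right of the 14 OS, 3 held a match (21.4%, interval 7.57 to 47.6), and 31.9% of such windows did for the other OS. There were 23 matches in all, counted in the 4 forms that WGATAR can take, 1.64 per OS against 1.30, with 1 match in 7 OS, 2 in 5 and 3 in 2. AGATAA made up 14 of the 23 (60.9%, others 44.6%), TGATAA 4 (17.4%, others 26.8%), TGATAG 3 (13.0%, others 11.0%) and AGATAG 2 (8.70%, others 17.6%). The match nearest to the midpoint was within 20 bp of it in 8 of the 14 OS, against 54.9% of the other OS that had a match, and the median distance was 17.5 bp in both sets. For the 8 OS that lay away from a start site and are not printed above, the match nearest to the midpoint is shown with 12 bases on either side, on the plus strand of mm9.
Scap, chr9:110269518-110269547: gccttggttctgTTATCTtggtatttagtt
Scarb1 second OS, chr5:125817490-125817519: gggccagatcccTTATCTgtagagaggaag
Mylip, chr13:45502288-45502317: agagtctcctgcTTATCTctcaccgtattt
Abca1 downstream, chr4:53036526-53036555: gatatcctgccgTTATCTagagtcagcgtg
Abca1 intron, chr4:53144019-53144048: cagctaatctctTTATCTccctgttaacag
Cyp7a1, chr4:6185316-6185345: accattttacaaAGATAAcaaatgtgaaca
Dhcr7, chr7:151019633-151019662: cagtgtggatccTTATCTgccattcgcctt
Soat1, chr1:158388993-158389022: cctaaagttttgTTATCTcaaaaacctcag
All 8 read AGATAA, on the minus strand in every case but Cyp7a1.

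**Figure D4:**
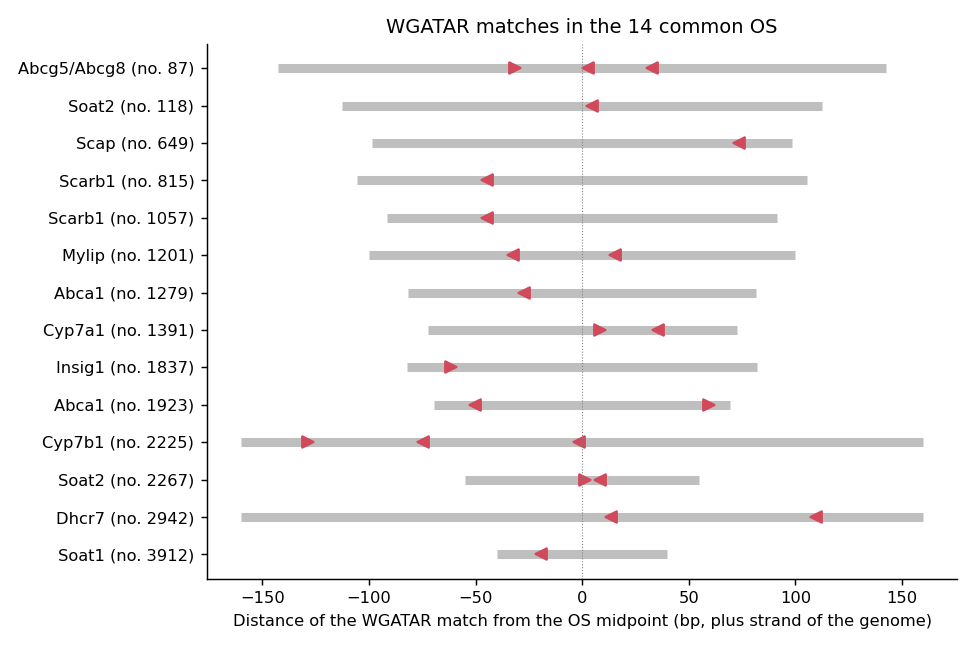
Places of the 23 WGATAR matches (triangles pointing right for the plus strand and left for the minus strand) in the 14 common OS (grey bars, to scale), in bp from the OS midpoint, ordered by number in the common list. In 8 OS a match lies within 20 bp of the midpoint, while in those of Scap, Scarb1, Abca1 and Insig1 none does.

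Short sequence elements of other liver transcription factors were sought on both strands of the same intervals. AGGTCA, a core element of nuclear receptors, stood in 4 of the 14 sequences (28.6%, interval 11.7 to 54.6), those of Insig1, Scap, Dhcr7 and the distal OS of Soat2, and in 24.3% of the other common OS. The longer CAAGGTCA, which contains it and is bound by NR5A receptors, was found in the Dhcr7 OS only (7.14%, others 3.32%). The forkhead elements TGTTTAC and TATTTAC occurred in 1 OS, that of Cyp7b1 (7.14%, others 9.03%). The C/EBP element TTGCNNAA occurred in 2 (14.3%, others 12.7%). CACGTG, a form of the E-box, occurred in 1 OS, that of Mylip (7.14%, others 3.96%), and the general E-box CANNTG, which includes it, in 9 (64.3%, others 60.3%). An exact HNF1 palindrome was in none of the 14 and in 0.0228% of the others. For every one of these elements the share in other OS lay inside the interval for the 14. With 14 OS these intervals are wide, from 1.27 to 31.5% for the forkhead elements. The comparison therefore cannot show that the shares are alike.

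A further 42 genes of the same pathways were listed in the same way. Of these, 14 (33.3%) had a common OS within 10 kb, 22 OS in all, beside the 13.6% of the background. This list too was chosen with results of these data known, so its share is no independent repeat of that of the first list. Its share was not broken down by gene length. In bile acid synthesis the occupied genes were Acox2 and Hsd17b4, peroxisomal enzymes of side chain shortening, and Cyp46a1. The Acox2 OS, in intron 11 at chr14:9076804-9077066, was number 71 of the common list. In transport they were Abcc3 and Abcc4, which export conjugates toward the blood, Slco1a4, an uptake carrier, and Atp8b1, a phospholipid flippase of the canaliculus. Lipa, the lysosomal cholesterol ester hydrolase, held 4 OS, numbers 2829 to 4001, the most of any gene in either list, although the nearest TSS to 2 of them was that of Ch25h. Npc2, the lysosomal sterol carrier, had an OS 16 bp from its TSS with number 184.

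The regulators Nr0b2 and Nr5a2, nuclear receptors that set the level of Cyp7a1 and Cyp8b1, held 2 and 3 OS. Those of Nr5a2 included number 379, centred 185 bp upstream of a TSS, with 3 WGATAR matches. Number 379 overlapped another of the Nr5a2 OS, number 4260, and both fell on the same MACS2 peak, number 567. Klb, the coreceptor for the intestinal hormone that represses bile acid synthesis, had an OS in intron 1. In cholesterol synthesis, the OS of Lbr lay 126 bp upstream of the TSS, and that of Tm7sf2 lay in a crowded region with 6 genes within 10 kb and another gene's TSS nearest. WGATAR occurred in 17 of these 22 OS (77.3%), beside 14 of 14 above and 82.8% of the common OS that were not at the 38 genes. The median number of the 22 OS was 1860.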

How the data were processed

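GATA4 ChIP-seq peaks of whole mouse liver were analysed as the authors had deposited them. Per the submitters' processing notes, tools included Bowtie 0.12.7, MACS2 2.0.10 and bedtools 2.16.1 with build mm9. Uniquely placed reads had been called with SPP and MACS2 on the replicates and the merged reads against input, thresholds set by irreproducible discovery rate, and both lists intersected. The deposited score is 1000 for every peak and was not used further. Peak numbers were read from the names. The input sample entered only through the peak calls.

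Coordinates were counted from 1 on NCBI Build 37, which is mm9. Midpoints of peaks were assigned to GENCODE M1 protein-coding genes with 10 kb on either side, and sequences were matched exactly on both strands. The gene lists were chosen with earlier results of these data known, and 1 item is not reported here. All listed genes were to be described, each OS of a member by position, number and matches, with sequence for OS within 1 kb of a TSS or with the most matches; the 30-base stretches were added. Wilson intervals at 95% were computed for the share of member genes with an OS and for the main motif shares. Other counts carry none, and no test was made. Windows, annotation, list and stretch of sequence were varied. Scripts used Python 3.11.15, scipy 1.17.1, pysam 0.24.0 and samtools 1.23.1 and were tested on simulated data.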

Additional observations from a re-analysis of the deposited data

How the results depend on the processing

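Under the 9 other assignments, the number of occupied genes ranged from 9 to 20 and the number of their OS from 10 to 30. Only the window of 50 kb moved either count by over 1.5 times, to 20 genes (52.6%, against 27.6% of the other genes) and 30 OS, and it moved the median distance of the OS to the gene's TSS from 4404 to 21470 bp. Measured to the TSS of the longest transcript, that median was 14970 bp. The window of 5 kb gave 11 genes (28.9%, others 11.3%) and lost Cyp7a1, and the gene body alone gave 9 (23.7%, others 7.64%) and also lost Abcg5 and Soat2. OS before the midpoint of the common list gave 9 genes (23.7%, others 7.19%), without Cyp7b1, Dhcr7 and Soat1. The single nearest TSS gave 12 genes, with Insig2 in place of Abcg8. The share of the 14 OS with WGATAR was 78.6% in the central 100 bp and 100% in 500 bp around the midpoint; the control windows 5 kb and 50 kb to the right held it in 21.4% and 28.6%. The median common number of the OS was 1922 with the window of 50 kb, against 1335. Counting shared OS once and the alternatives for number and distance were chosen after seeing the data. No paired analysis was possible because the lists give no value per replicate. With 1 pooled sample, no count has a replicate error; OS just under the authors' thresholds cannot be seen, the number in a list is not a measured strength, and occupancy in whole liver is not resolved by cell type.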

Other observations

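Of the 26 placed genes without a common OS, 8 had one between 10 and 50 kb away. Within 10 kb, 31.6% of the placed genes had an OS, against 13.6% of the other protein-coding genes. Within 50 kb the shares were 52.6% and 27.6%. No share of the other genes was taken for the band from 10 to 50 kb alone. The OS nearest to Abcb11 (number 343, upstream at chr2:69224199-69224393, 3 WGATAR matches) and to Slc10a1 (number 374, downstream at chr12:82032498-82032714, 1 match) stood earlier in the common list than most OS inside the limit. The TSS nearest to the former was that of Dhrs9, at 5794 bp, and to the latter that of Srsf5, at 13885 bp. The OS nearest to Cyp8b1 and Cyp27a1 were likewise closer to a TSS of another gene, Ccbp2 at 3814 bp and Ttll4 at 3284 bp. The OS nearest to Npc1l1 lay 21 bp from the TSS of Ddx56 and held no WGATAR, and the OS nearest to Idi1 held none either.

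The OS upstream of Insig2 (number 2392, chr1:123246037-123246356, 17.0 kb from the gene) held 15 WGATAR matches, 13 of them on the plus strand, and was the only common OS with 15 or more. A run of 11 matches, each starting 4 bp after the one before, filled 46 bases. A stretch of 60 bases with this run is shown on the plus strand of mm9, matches in capitals.
Insig2, chr1:123246047-123246106: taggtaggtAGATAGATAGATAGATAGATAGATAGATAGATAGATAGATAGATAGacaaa
Matches that overlap in such a tandem repeat are not separate sites, and this OS was not among the 14 whose matches were counted.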
